A study of Mus musculus with 8 samples.

Results

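Lsr, Heg1 and Ncam1 encode cell-surface proteins of cell junctions and cell adhesion, and each of them overlaps a noncoding RNA gene annotated on the other DNA strand. The 6 rows described here are these 3 genes and their opposite-strand partners, Gm4673 for Lsr, Gm15657 for Heg1 and Gm11149 for Ncam1. They are 6 of the 54146 gene rows of a count table made by RNA sequencing of ID8-OR cells, a line of mouse ovarian cancer cells that is resistant to olaparib. The cells of every group are this resistant line, so all comparisons lie within resistant cells of 1 line. The cells were treated for 72 hours with olaparib plus EZM8266 (the combination), with EZM8266 alone, with olaparib alone, or with DMSO, the solvent control, and each of the 4 groups has 2 libraries. Olaparib inhibits PARP enzymes, which act in DNA repair, and EZM8266 is known here only by its code name. The labels give no doses. They do not say that the replicates of a group were cultured separately, so the p-values below reflect only how far these libraries differ from one another, and that spread may be technical. In combination replicate 2 the treatment label reads EZM8267, and the library was placed by its title.

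The rows were taken by name, with earlier results of these data in view, and the level with EZM8266 against the level without it is treated as the measure that chose them. Differences between libraries with and without EZM8266 are therefore given as a description and not as evidence. Olaparib against DMSO and the interaction of the compounds were not part of that choice.

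LSR, the lipolysis-stimulated lipoprotein receptor, is an angulin. It marks the points where 3 epithelial cells meet and recruits tricellulin there, and in liver it takes up lipoproteins. HEG1 is a transmembrane protein with a mucin-like outer part that binds KRIT1, a member of the cerebral cavernous malformation complex, through its cytoplasmic tail, and it is needed for endothelial junctions and heart development. NCAM1 is an adhesion molecule of the immunoglobulin superfamily that binds to itself on neighbouring cells, and its polysialylated form is known above all in the developing nervous system. In epithelia such proteins hold neighbouring cells together. No role is given here for Gm4673, Gm15657 or Gm11149.

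The strand of the counts decides how each pair can be read. The deposited counts were made with strand setting 1, which assigns a fragment to a gene on the strand of its first read. The library kit marks strand with dUTP and places the first read opposite to the transcript. Counts therefore fall mainly on the row opposite to the transcribed strand. In the table as a whole, rows that share at least 50 exon bases with a gene on the other strand were 15.2% of the rows and took up 83.8% to 88.6% of each library's counts. The Gm4673, Gm15657 and Gm11149 rows are accordingly read as fragments from the DNA strand on which Lsr, Heg1 and Ncam1 are annotated. A row collects only what falls within its own exons, so it samples a piece of the gene opposite and any other RNA of that strand under its exons, and spliced RNA cannot be told apart from unspliced RNA.

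**Figure D1:**
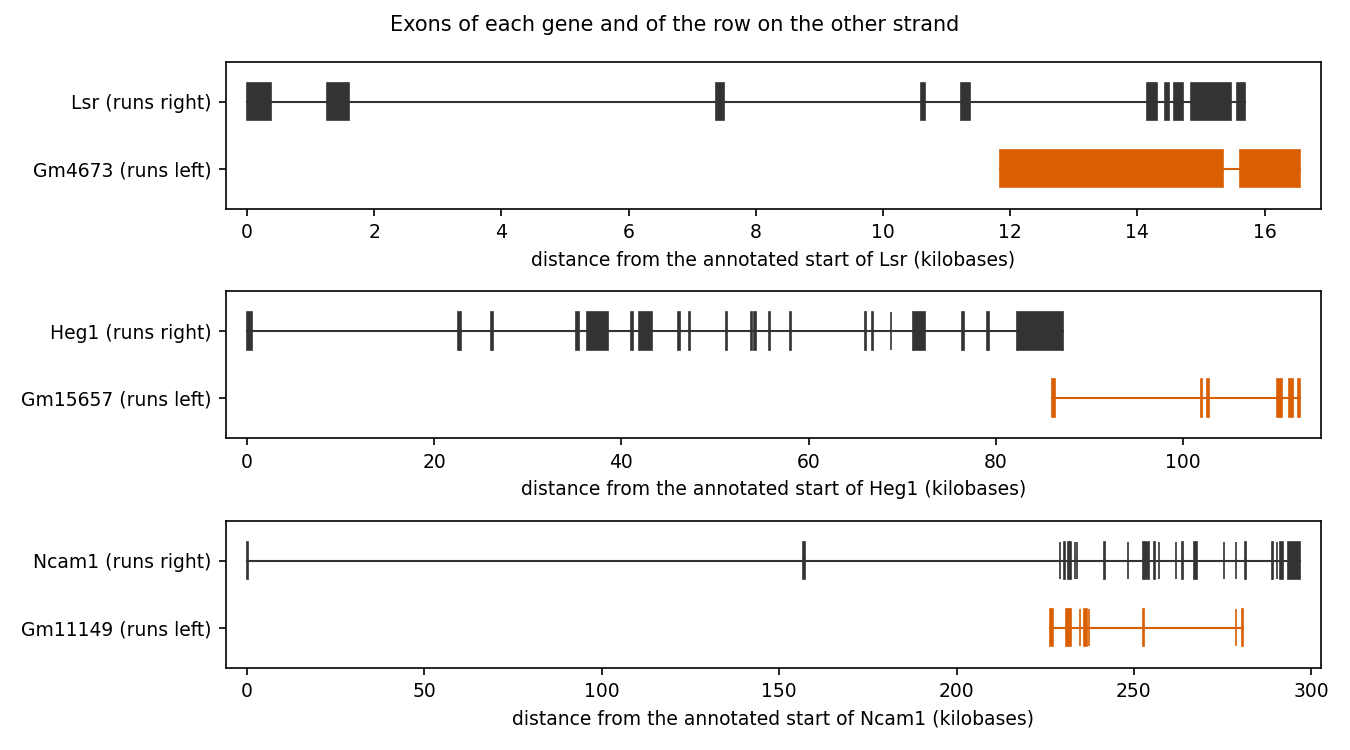
Exons of each gene (upper track) and of the opposite-strand row (lower track) against the distance in kb from the annotated start of the gene, with 1 panel per pair. Gm4673 lies across exons and introns near the 3′ end of Lsr, Gm15657 meets only the 3′ end of Heg1 and runs beyond it, and Gm11149 lies inside Ncam1.

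Lsr (ENSMUSG00000001247.16) lies on the minus strand at chr7:30957770-30973464 of mm10, with 2172 exon bases. Gm4673 (ENSMUSG00000097750.2) is on the plus strand at chr7:30956909-30961619 with 4452 exon bases. Of these, 946 bases (21.2%) lie over Lsr exons, 2645 bases (59.4%) over Lsr introns and 861 bases (19.3%) outside Lsr. The shared bases are 43.6% of the Lsr row and comprise 85 bases of untranslated sequence and coding blocks of 507, 132, 60 and 162 bases. The Gm4673 row thus covers whole Lsr coding exons and several introns. Exons 8, 7 and 6 of transcript Lsr-201, at chr7:30958750-30958881, chr7:30958975-30959034 and chr7:30959153-30959314, lie wholly under Gm4673. They are shown because they are Lsr coding sequence counted in the Gm4673 row. They are written 5′ to 3′ on the minus strand of GRCm38 with GENCODE M21 exon borders, and capitals mark the bases under the opposite row.
Lsr exon 6: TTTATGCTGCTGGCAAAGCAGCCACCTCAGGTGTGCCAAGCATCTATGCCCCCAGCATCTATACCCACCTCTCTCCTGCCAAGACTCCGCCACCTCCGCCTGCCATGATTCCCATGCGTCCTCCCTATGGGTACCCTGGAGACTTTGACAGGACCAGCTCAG
Lsr exon 7: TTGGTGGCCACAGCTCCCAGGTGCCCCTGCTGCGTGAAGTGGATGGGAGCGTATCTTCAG
Lsr exon 8: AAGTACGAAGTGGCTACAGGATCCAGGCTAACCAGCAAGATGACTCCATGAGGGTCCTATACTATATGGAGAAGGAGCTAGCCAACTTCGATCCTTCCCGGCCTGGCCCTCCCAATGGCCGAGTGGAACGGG

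Heg1 (ENSMUSG00000075254.12) lies on the plus strand at chr16:33684370-33771576 with 12728 exon bases. Gm15657 (ENSMUSG00000090214.8) lies on the minus strand at chr16:33770430-33796874 with 1517 exon bases. The rows share 318 bases at the 3′ end of Heg1, all of them untranslated, which are 2.50% of Heg1 and 20.96% of Gm15657. The other 1199 exon bases of Gm15657 lie beyond Heg1, and 184 of its exon bases lie over exons of Muc13, a mucin gene on the same strand as Heg1. RNA of Heg1, of Muc13 and of sequence between or beyond them cannot be told apart in this row. Of the 3 opposite-strand rows, Gm15657 samples the shortest stretch of its partner.

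Ncam1 (ENSMUSG00000039542.16) lies on the minus strand at chr9:49502136-49798925 with 8664 exon bases. Gm11149 (ENSMUSG00000079564.3) lies on the plus strand at chr9:49518288-49572591 with 3198 exon bases. All of it is inside Ncam1. Gm11149 has 417 bases (13.04%) over Ncam1 exons and 2781 bases (87.0%) over Ncam1 introns. The shared exon bases are coding, in blocks of 106, 151, 29 and 131 bases, and are 4.81% of the Ncam1 row. The exons that hold these blocks are written out on the minus strand of GRCm38, 5′ to 3′, with capitals for the bases under Gm11149. They are exons 2, 3 and 8 of transcript Ncam1-205, at chr9:49567337-49567480, chr9:49566675-49566812 and chr9:49546158-49546308, and exon 15 of Ncam1-202 at chr9:49520035-49520215.
Ncam1 exon 2: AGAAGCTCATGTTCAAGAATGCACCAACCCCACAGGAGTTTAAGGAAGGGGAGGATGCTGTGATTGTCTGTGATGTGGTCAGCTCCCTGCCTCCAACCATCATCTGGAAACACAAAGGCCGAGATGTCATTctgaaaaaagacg
Ncam1 exon 3: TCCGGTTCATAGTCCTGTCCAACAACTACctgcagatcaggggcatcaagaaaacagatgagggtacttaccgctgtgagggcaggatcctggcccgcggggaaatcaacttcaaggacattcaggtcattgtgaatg
Ncam1 exon 8: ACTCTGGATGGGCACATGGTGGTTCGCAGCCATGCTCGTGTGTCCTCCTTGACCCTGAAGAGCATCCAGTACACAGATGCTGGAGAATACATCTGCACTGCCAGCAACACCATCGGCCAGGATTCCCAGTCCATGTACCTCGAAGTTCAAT
Ncam1 exon 15: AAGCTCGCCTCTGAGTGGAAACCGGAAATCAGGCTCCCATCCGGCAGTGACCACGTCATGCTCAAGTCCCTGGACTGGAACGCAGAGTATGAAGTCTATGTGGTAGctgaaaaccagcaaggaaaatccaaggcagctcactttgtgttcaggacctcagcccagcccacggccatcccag

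The depth behind these rows was low. The libraries held 19743299 to 30329847 fragments, of which 4.54% (Wilson 95% interval 4.53% to 4.55%) in EZM8266 replicate 2 to 5.40% (5.39% to 5.41%) in olaparib replicate 1 were assigned to a row, and the counts summed to 973382 to 1680974 per library. A count of 0 allows 3 counts, which is 1.78 to 3.08 CPM, the count scaled to the size of its library. These intervals and limits take in counting error alone, since the labels name no molecular identifiers. DMSO replicate 1 and olaparib replicate 2 held 23746 and 22517 counts of the Gm10800 row, against 1182 to 4277 in the other 6 libraries, and their effect is given beside the results they touch. As a measure of how much of a library falls on the wrong row, the Rmrp row was 1.04% to 1.68% of the sum of the Rmrp row and the Ccdc107 row opposite to it. By the numbers in their labels, libraries with EZM8266 are 33 to 36 and those without it are 41 to 44, so a handling block in that order and the EZM8266 effect cannot be told apart.

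Marker rows were set beside the label of the cells. Krt8, Krt18 and Krt19, keratins of simple epithelia, had counts in every library, and the row opposite Krt8 (Gm36026) had 196 to 362 counts. Cdh1, Epcam and Krt7, also listed as epithelial markers, had 0 to 1 counts. Of the mesothelial and ovarian surface markers, Wt1 had 13 to 58 counts, Msln 2 to 9, Upk3b 0 to 7 and Lrrn4 0 to 1. Of the mesenchymal markers, the filament gene Vim had 59 to 199 counts and the fibronectin gene Fn1 39 to 214. Zeb2 had 7 to 41, Cdh2 9 to 29 and Zeb1 1 to 10. The own rows of other cell types' markers were near 0. The 5 endothelial rows summed to 1.03 to 4.64 CPM with EZM8266 and to 1.19 to 4.14 CPM without it, with Emcn at 0 counts. The 5 neural rows summed to 0 to 4.11 CPM with EZM8266 and to 1.78 to 9.48 CPM without it. The 5 leukocyte rows summed to 2.72 to 8.22 CPM with EZM8266 and to 0.618 to 10.8 CPM without it, with Cd3e and Adgre1 at 0 counts. Given the strand of the counts, own rows do not show whether the transcripts of these markers were low, and few markers have a row on the other strand. Such rows held 0 to 2 counts opposite Krt7 (Gm671), 0 opposite Cd3e (Gm48719) and 6 to 16 opposite the neural gene Map2 (Gm10558). Among mesenchymal genes they held 3 to 9 counts opposite Zeb1 (Gm10125), 4 to 15 opposite Zeb2 (Zeb2os) and 489 to 1185 opposite Fn1 (Apol7d). No endothelial marker had such a row. The part of other cell types in the results was not tested.

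The strand of Lsr, read through Gm4673, was higher with EZM8266. The Gm4673 row had 424 and 398 CPM with the combination and 371 and 429 CPM with EZM8266, against 270.0 and 250.5 CPM with olaparib and 242 and 289 CPM with DMSO. The 4 libraries with EZM8266 all lay above the 4 without it. The 4 libraries with EZM8266 averaged 405 ± 26.5 CPM and the 4 without it averaged 263 ± 21.03 CPM (SD, n = 4 each). The averaged EZM8266 effect (combination and EZM8266 against olaparib and DMSO) was a log2 fold change of 0.62 ± 0.10 (SE), which is 1.54-fold. In bulk RNA, more cells that carry a transcript and more of it per cell cannot be told apart.

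The Gm15657 row, which meets the 3′ end of Heg1, was also higher with EZM8266. The Gm15657 row had 259 and 270.0 CPM with the combination and 244 and 263 CPM with EZM8266, against 185 and 170.0 CPM with olaparib and 177 and 174 CPM with DMSO. The groups with and without EZM8266 did not overlap. The means were 259 ± 11.1 CPM with EZM8266 and 177 ± 6.53 CPM without it (SD, n = 4 each), a log2 fold change of 0.55 ± 0.09 (SE) or 1.46-fold.

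The strand of Ncam1, read through Gm11149, was lower with EZM8266. The Gm11149 row had 1515 and 1416 CPM with the combination and 1378 and 1589 CPM with EZM8266, against 1981 and 2009 CPM with olaparib and 2008 and 1920 CPM with DMSO. Every library with EZM8266 was below every library without it. The means were 1475 ± 95.7 CPM with EZM8266 and 1979 ± 41.6 CPM without it (SD, n = 4 each), a log2 fold change of -0.42 ± 0.08 (SE), or 0.745 of the level without EZM8266. Gm11149 was thus lower in the libraries in which Gm4673 and Gm15657 were higher.

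**Figure D2:**
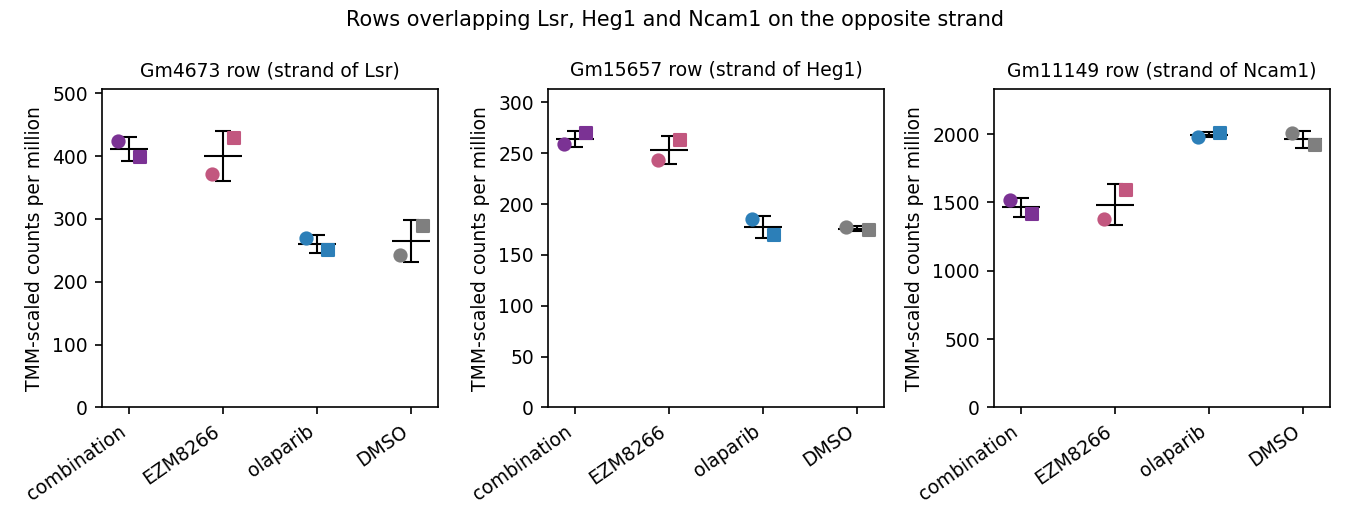
TMM-scaled CPM (y axis, from 0) of Gm4673, Gm15657 and Gm11149 in each treatment group (x axis). Circles are replicate 1, squares replicate 2, bars the group mean and whiskers the SD (n = 2). Gm4673 and Gm15657 are higher, and Gm11149 lower, in the 4 libraries with EZM8266.

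The effect had a like size whether or not olaparib was present. For Gm4673 the log2 fold change was 0.66 ± 0.14 (SE) for the combination against olaparib and 0.59 ± 0.14 for EZM8266 against DMSO. For Gm15657 the same contrasts gave 0.57 ± 0.13 and 0.53 ± 0.13. For Gm11149 they gave -0.44 ± 0.11 and -0.40 ± 0.11. The combination against DMSO, which shares its controls with EZM8266 against DMSO, gave 0.63 ± 0.14 for Gm4673, 0.59 ± 0.13 for Gm15657 and -0.42 ± 0.11 for Gm11149.

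The rows named for the genes themselves held far fewer counts. The Lsr row had 37.3 and 36.1 CPM with the combination and 34.8 and 36.8 CPM with EZM8266, against 30.2 and 29.3 CPM with olaparib and 37.2 and 43.2 CPM with DMSO. The libraries with EZM8266 lay between the olaparib and the DMSO libraries, apart from combination replicate 1, which was above DMSO replicate 1. The means were 36.2 ± 1.08 CPM with EZM8266 and 34.97 ± 6.55 CPM without it (SD, n = 4 each), and the log2 fold change was 0.06 ± 0.17 (SE).

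The Heg1 row held 3 to 17 counts. It had 7.05 and 9.75 CPM with the combination and 12.9 and 5.97 CPM with EZM8266, against 8.09 and 2.44 CPM with olaparib and 3.92 and 8.03 CPM with DMSO. The libraries with and without EZM8266 overlapped, and the SD within a treatment group was 1.91 to 4.87 CPM (n = 2 each). The means were 8.91 ± 3.08 CPM with EZM8266 and 5.62 ± 2.88 CPM without it (SD, n = 4 each). No difference was detectable in this row at this depth, with a log2 fold change of 0.63 ± 0.47 (SE).

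The Ncam1 row had 34.2 and 46.8 CPM with the combination and 37.1 and 19.9 CPM with EZM8266, against 55.9 and 53.7 CPM with olaparib and 51.9 and 75.3 CPM with DMSO. The 4 libraries with EZM8266 lay below the 4 without it, the same direction as the Gm11149 row. The means were 34.5 ± 11.1 CPM with EZM8266 and 59.2 ± 10.9 CPM without it (SD, n = 4 each), and the log2 fold change was -0.79 ± 0.21 (SE).

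**Figure D3:**
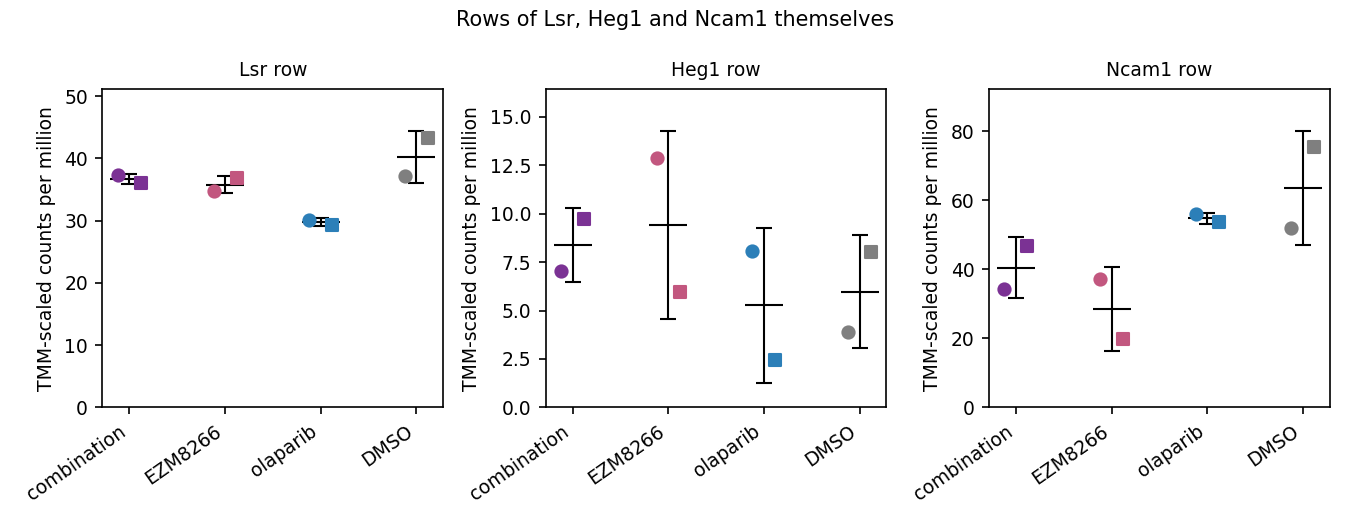
TMM-scaled CPM (y axis, from 0) of the Lsr, Heg1 and Ncam1 rows in each treatment group (x axis). Circles are replicate 1, squares replicate 2, bars the group mean and whiskers the SD (n = 2). The groups overlap for Lsr and Heg1, and the Ncam1 row is lower in the 4 libraries with EZM8266.

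Set per length, the 6 rows spanned a wide range. With EZM8266, against without it, the mean level was 461 against 619 CPM per kb of exon for Gm11149, 171 against 116 for Gm15657 and 91.1 against 59.0 for Gm4673. The gene rows had 16.7 CPM per kb with EZM8266 and 16.1 without it for Lsr, 3.98 and 6.83 for Ncam1, and 0.700 and 0.441 for Heg1. The order of the rows was the same with and without EZM8266. By mean CPM, Gm11149 ranked 54, Gm4673 399 and Gm15657 624 among the 6379 rows tested, while Ncam1 ranked 1872, Lsr 2246 and Heg1 5948.

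Within a pair, the row of the gene held a small share of the counts of both rows. The Lsr row was 8.08% and 8.31% of its pair with the combination and 8.57% and 7.91% with EZM8266, against 10.05% and 10.5% with olaparib and 13.3% and 13.01% with DMSO. The shares with EZM8266 were all lower than those without it. The Wilson 95% interval ran from 5.92% to 10.9% in combination replicate 1 and from 9.87% to 17.8% in DMSO replicate 1, and these intervals overlapped. Differences between single libraries were not tested. The Heg1 row was 2.22% to 5.01% of its pair with EZM8266 and 1.42% to 4.41% without it. The Ncam1 row was 1.24% to 3.20% of its pair with EZM8266 and 2.52% to 3.78% without it. The Rmrp share of the same libraries was 1.04% to 1.68%, but it is not a like measure. Gm4673, Gm15657 and Gm11149 lie over only 946, 318 and 417 exon bases of their genes, and over introns or sequence beyond them. The gene rows collect over all of their own exons. How far the 3 gene rows hold fragments that reached the wrong strand was not tested.

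Across the whole table, edgeR's quasi-likelihood test with Benjamini-Hochberg adjustment called 42 of 6379 rows for the averaged EZM8266 effect, or 0.658%, and 3 of the 6 members were among them. Of all rows tested, 0.596% were called higher and 0.0627% lower, and of the members 2 were called higher and 1 lower. The 4 libraries with EZM8266 did not overlap the 4 without it in 5.35% of the rows tested (3.32% higher and 2.02% lower), and in 4 of the 6 members (2 higher and 2 lower). All 6 members passed the filter on low counts. Because the members were chosen on this contrast, nothing is read from these counts. The called members were Gm4673 (adjusted p = 0.00853), Gm15657 (adjusted p = 0.0127) and Gm11149 (adjusted p = 0.0288), by the same edgeR test. With a filter of 1 CPM in 4 libraries, the Gm11149 call was lost (edgeR adjusted p = 0.0652). In the comparisons of single groups 0 of the 6 members were called. When edgeR was fitted to the combination and olaparib libraries alone, Gm4673 was called (adjusted p = 0.0235). The share of all rows called was 0.0941% between the combination and olaparib, 0.219% between the combination and DMSO, and 0.204% between EZM8266 and DMSO. In edgeR fits that left out 1 library, the Gm4673 call was lost without olaparib replicate 2 (adjusted p = 0.0690). The Gm15657 call was lost without DMSO replicate 1 (adjusted p = 0.0516), DMSO replicate 2 (0.0671), olaparib replicate 2 (0.105), combination replicate 1 (0.0642) or combination replicate 2 (0.101). The Gm11149 call was lost without DMSO replicate 1 (adjusted p = 0.111), DMSO replicate 2 (0.0717), olaparib replicate 1 (0.132), olaparib replicate 2 (0.108), combination replicate 1 (0.100) or combination replicate 2 (0.375). These fits applied the filter anew and tested 7133 to 7660 rows, so the rows behind the adjustment changed along with the libraries. The sizes changed little: over these fits the log2 fold change stayed between 0.57 and 0.69 for Gm4673, 0.51 and 0.59 for Gm15657, and -0.47 and -0.38 for Gm11149. Ncam1, not called with all libraries (edgeR adjusted p = 0.192), was called without EZM8266 replicate 1 (0.0297, log2 fold change -1.08). With both Gm10800-rich libraries left out, edgeR gave an adjusted p of 0.249 for Gm4673, 0.301 for Gm15657 and 0.386 for Gm11149.

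**Figure D4:**
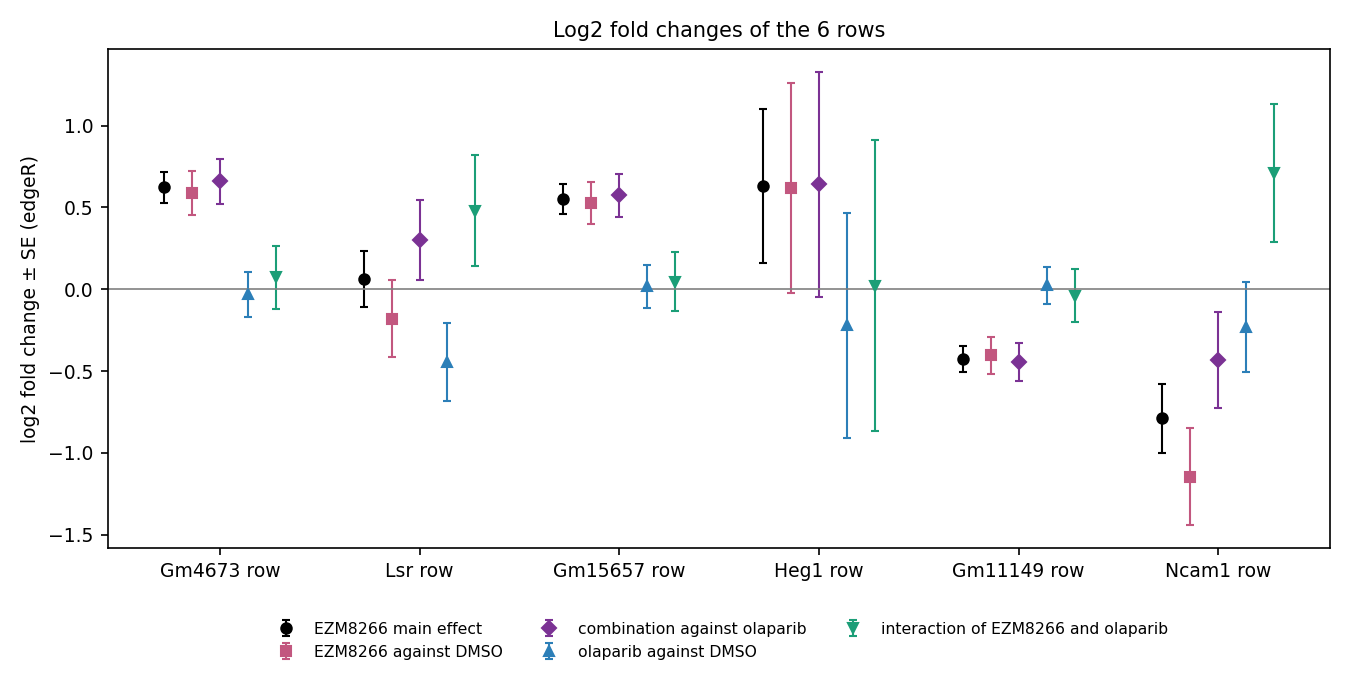
Log2 fold changes of the 6 rows (points) with their SE (whiskers) in the EZM8266 contrasts, olaparib against DMSO and the interaction. Gm4673 and Gm15657 lie above 0 and Gm11149 below 0 in the EZM8266 contrasts, and these 3 rows lie near 0 for olaparib against DMSO.

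Olaparib alone made no detectable difference to any of the 6 rows. Gm4673 averaged 260.2 ± 13.8 CPM with olaparib and 265 ± 33.3 CPM with DMSO (SD, n = 2 each), a log2 fold change of -0.03 ± 0.14 (SE). The log2 fold change was 0.02 ± 0.13 for Gm15657 and 0.02 ± 0.11 for Gm11149. These 3 rows are the best counted, and their estimates lie close to 0. The estimates for the gene rows were wider, at -0.44 ± 0.24 (SE) for Lsr, -0.23 ± 0.27 for Ncam1 and -0.22 ± 0.69 for Heg1. Each of the 6 had an adjusted p of 0.999 by edgeR's quasi-likelihood test. Over all rows edgeR called 0 for olaparib against DMSO, or 0%, with 117 rows at an unadjusted p under 0.05, and DESeq2 also called 0.

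The interaction asks whether the effect of EZM8266 differs when olaparib is present. Its log2 estimate was 0.07 ± 0.19 (SE) for Gm4673, 0.05 ± 0.18 for Gm15657 and -0.04 ± 0.16 for Gm11149. It was 0.48 ± 0.34 for Lsr, 0.71 ± 0.42 for Ncam1 and 0.02 ± 0.89 for Heg1. For Ncam1 the EZM8266 effect was -0.43 ± 0.29 in the presence of olaparib and -1.14 ± 0.30 in its absence, and the unadjusted p of the difference in edgeR was 0.114. Without EZM8266 replicate 1, the Ncam1 interaction was 1.28. None of the 6 was called by edgeR. Over all rows edgeR called 0 (0%), with 103 rows at an unadjusted p under 0.05, and DESeq2 called 1.

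The rows whose levels were most like those of the members were found by Pearson's r of log2 CPM over the 8 libraries, which the rows share. They are named as a description, and a row with a like pattern shares the same split of libraries by EZM8266. For Gm4673 these were Gm11216 (r = 0.989), Snx17 (r = 0.974), which lies opposite Eif2b4 and Zfp513, and Gm30489 (r = 0.973), opposite the transglutaminase subunit gene F13a1. For Gm15657 they were Gm43434 (r = 0.997), opposite the T cell receptor delta constant gene Trdc, Snx17 (r = 0.985) and Gm36099 (r = 0.977), opposite Serpinb9b. Snx17, a sorting nexin gene, was in both lists. For Gm11149 they were Gm29233 (r = 0.986), opposite the thrombospondin gene Thbs1, 8030451A03Rik (r = 0.958), opposite the tenascin gene Tnc, and A530084C06Rik (r = 0.957), opposite Foxq1. Thbs1 and Tnc encode matrix proteins. Among the members, Gm4673 and Gm15657 were alike (r = 0.964), and Gm11149 ran opposite to Gm4673 (r = -0.90) and to Gm15657 (r = -0.93). For a gene row and its opposite row, r was 0.315 for Lsr and Gm4673, 0.551 for Heg1 and Gm15657, and 0.585 for Ncam1 and Gm11149.

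Other junction and adhesion genes were read in the same manner, from 4 lists of tight junction genes, HEG1 and cerebral cavernous malformation pathway genes, NCAM1 partners, and adherens junction and other adhesion genes. Each gene was read both from its own row and from rows at least 50 exon bases over its exons on the other strand. The opposite rows tested had 2.58% to 37.9% of their exon bases over exons of the gene named, so most of each row lies elsewhere. Of 33 own rows and 19 opposite rows tested, 0 were called in any of the 6 comparisons. Of all rows tested, 0.658% were called for the averaged EZM8266 effect and 0% to 0.219% in the other comparisons. At such shares, 0 called among so few rows does not set these rows apart. For the averaged EZM8266 effect, 0 of the list rows had an unadjusted p under 0.05 in edgeR, against 432 of all 6379 rows, and DESeq2 called 0 list rows. The 19 opposite rows had a median log2 fold change of 0.12 with 16 above 0, and the 33 own rows a median of -0.09 with 15 above 0, against a median of -0.02 over all 6379 rows. The split differed between comparisons. For olaparib against DMSO, 16 of the 19 opposite rows (median 0.07) and 8 of the 33 own rows (median -0.20) were above 0. For the combination against olaparib these were 12 (median 0.08) and 16 (median -0.01), and for the interaction 7 and 22. The cause of the split was not tested.

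Among tight junction genes, the row opposite Ildr2 (5330438I03Rik), a gene of the same angulin family as Lsr, averaged 747 CPM over the 8 libraries, and its averaged EZM8266 effect was 0.17 ± 0.09 (log2, SE). The row opposite Cxadr (Btg3), which encodes the coxsackievirus and adenovirus receptor of tight junctions, averaged 671 CPM with 0.02 ± 0.09. Gm4673, chosen with its value known, was at 0.62. The own rows of Cxadr, Cgnl1, Tjp1 and Mpp5 had log2 fold changes of 0.03 ± 0.22, -0.21 ± 0.35, 0.04 ± 0.32 and 0.07 ± 0.28 (SE). In the angulin family the own rows held 0 counts for Ildr1 and 9 to 37 for Ildr2.

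In the HEG1 pathway list, the rows opposite Itgb1bp1, whose product ICAP1 binds KRIT1 and integrin tails, were Cpsf3 with a log2 fold change of -0.04 ± 0.23 (SE) and Asap2 with 0.18 ± 0.21. Only 3.71% of the Cpsf3 exon bases and 5.77% of those of Asap2 lie over Itgb1bp1, and Asap2 also lies over Gm20535. The rows opposite the kinase gene Stk25 were Gm28536 with 0.17 ± 0.21 and Farp2 with 0.26 ± 0.23. These rows averaged 23.2 to 46.0 CPM. The own row of Klf4, a transcription factor gene that the HEG1 and cavernous malformation proteins restrain in endothelium, had 0.65 ± 0.35 at 11.0 CPM, with an edgeR adjusted p of 0.834. The own rows of Itgb1bp1, Stk25 and Stk24 had -0.14 ± 0.20, -0.09 ± 0.17 and 0.34 ± 0.26.

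Among NCAM1 partners, the row opposite the receptor phosphatase gene Ptpra (4930473A02Rik) averaged 271 CPM with a log2 fold change of 0.05 ± 0.09 (SE). The row opposite the spectrin gene Sptbn1 (Gm29237) averaged 122 CPM with 0.11 ± 0.15. The row opposite Fgfr1 (Gm16159), the receptor kinase that NCAM1 can engage, had 0.46 ± 0.29 at 15.5 CPM. The median over these 3 rows was 0.11, while Gm11149 was at -0.42. The own rows of Hspg2, Sptbn1, Ptk2 and Ptpra had -0.23 ± 0.24, 0.03 ± 0.22, -0.33 ± 0.37 and 0.05 ± 0.54. Ncam2, the paralog of Ncam1, had 0 to 2 counts in its own row.

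Among adherens junction and other adhesion genes, the row opposite vinculin (Vcl; Ap3m1) averaged 4342 CPM with a log2 fold change of 0.11 ± 0.08 (SE). The row opposite beta-catenin (Ctnnb1; Ulk4) averaged 3095 CPM with -0.05 ± 0.08. The row opposite Nectin2 (Gm20512, also over Tomm40) had 0.04 ± 0.10, and the row opposite Icam1 (Gm47079, also over Icam4 and Icam5) had 0.15 ± 0.11. These are among the best counted rows of the lists. The own rows of Vcl, Ctnna1, Ctnnb1 and Afdn had 0.03 ± 0.22, -0.50 ± 0.32, -0.16 ± 0.29 and -0.27 ± 0.30.

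**Figure D5:**
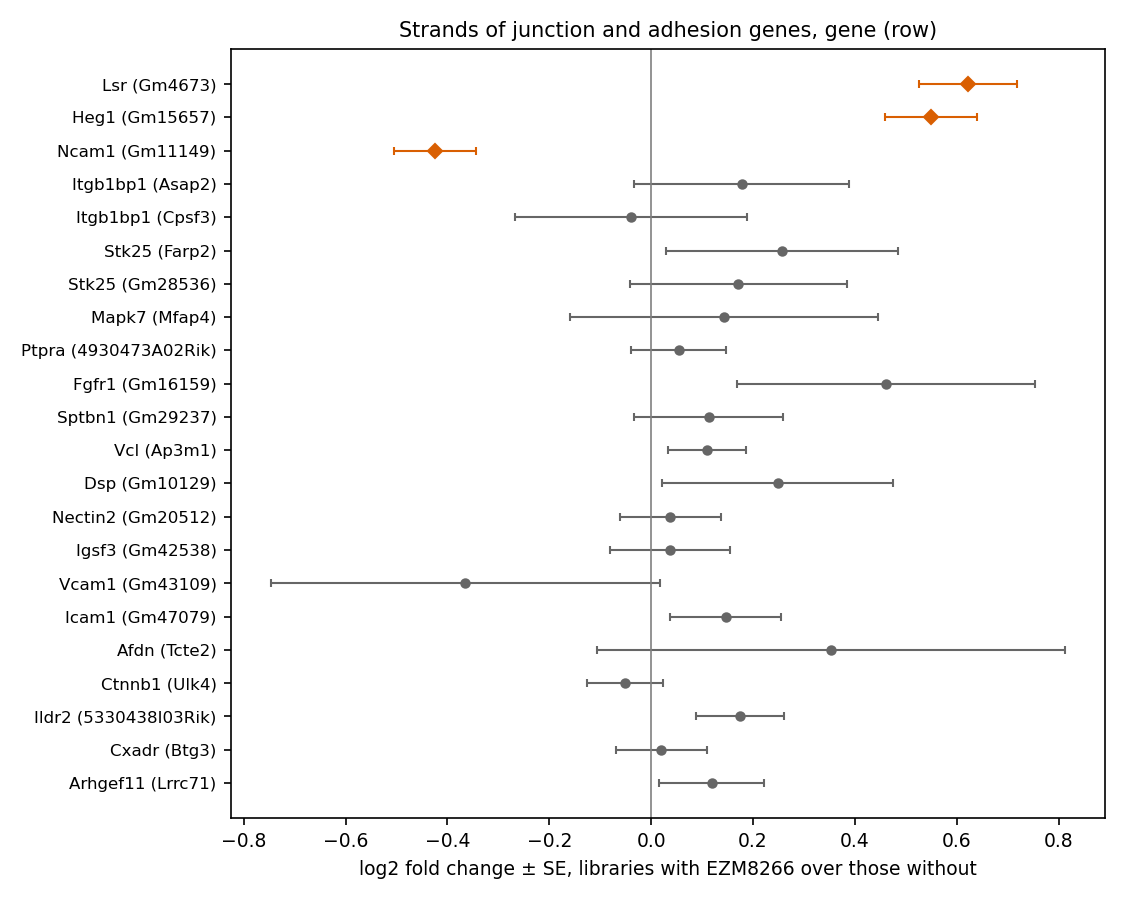
Log2 fold change for the averaged EZM8266 effect (x axis) of the opposite-strand rows of the 4 lists (grey points, whiskers SE) and of the members (orange diamonds). Gm4673 and Gm15657 lie at 0.62 and 0.55 and Gm11149 at -0.42. Of the 19 list rows 0 were called, against 0.658% of all rows tested.

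The promoters of Lsr and Heg1 are shown because the Gm4673 and Gm15657 rows were higher in the same libraries. The sequences are from RefSeq on GRCm38.p6, 5′ to 3′ on the strand of the gene, and end before the start of the gene. Of the 3 genes, 2 matched an entry of the table used. Capitals mark matches of 4 motifs searched on both strands, namely the GC box (GGGCGG), an E-box (CACCTG), the box spelled CCAAT, and the TATA box (TATAAA). Lsr has 250 bases at chr7:30973470-30973719 on the minus strand, and Heg1 has 154 bases at chr16:33684216-33684369 on the plus strand.
Lsr promoter: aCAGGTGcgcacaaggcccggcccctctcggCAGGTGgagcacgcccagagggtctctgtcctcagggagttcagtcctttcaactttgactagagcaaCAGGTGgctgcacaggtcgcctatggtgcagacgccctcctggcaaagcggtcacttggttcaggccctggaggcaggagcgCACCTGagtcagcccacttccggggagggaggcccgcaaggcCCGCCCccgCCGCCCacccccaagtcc
Heg1 promoter: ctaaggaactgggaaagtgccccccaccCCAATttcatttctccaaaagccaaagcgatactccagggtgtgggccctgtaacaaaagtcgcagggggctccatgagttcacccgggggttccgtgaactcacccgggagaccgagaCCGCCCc

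The Lsr window held 4 E-box matches, against at least 1 in 17.2% of the 32851 RefSeq windows of the same length, and 2 GC box matches, against 32.7% of windows with at least 1. It held 13 CpG, and 31.5% of windows held at least as many. The Heg1 window held 1 GC box, found in 17.3% of windows of its length, and 1 CCAAT, found in 20.5%. It held 7 CpG, and 29.3% of windows held at least as many. The Heg1 window ends at the GENCODE start (33684370), short of the RefSeq start (33684466). The windows it is set against were cut at the same distance from their RefSeq starts, so they leave out the bases next to those starts. The GC box was the only 1 of the 4 motifs found in both windows. A match is a description of letters and not a binding site.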

How the data were processed

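RNA was sequenced from 8 libraries, 2 in each of 4 treatment groups taken from the sample titles. The values deposited by the authors are raw fragment counts for each gene. HISAT2 2.1.0 and Subread 1.6.2 were used on build mm10, with FastQC 0.11.8 and MultiQC 1.7 for quality, per the submitters' processing notes. Read pairs were counted by featureCounts over GENCODE M18 exons, per the file headers, with strand setting 1 and a fragment counted for each gene it overlapped. The reading of the strand rests on the kit named in the labels' protocols and on where the counts lie.

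Exon overlaps were computed from the exons listed in the table. Symbols came from GENCODE M21, which named 54079 rows and left 67 unnamed. The counts were fitted with edgeR 4.0.16 in R 4.3.3 (quasi-likelihood F test, TMM scaling, filterByExpr at its settings of 10 counts and 15 in total, 4 group means, all 8 libraries). The filter kept 6379 rows, over which p-values were adjusted by Benjamini-Hochberg, and a row was called under 0.05. Levels are TMM-scaled CPM. The script was tested on simulated data. Other settings included DESeq2 1.42.0, RLE scaling, other filters, a replicate block and leaving out libraries.

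The members, lists and tests were chosen with earlier results of these data known. The named rows are the 6 members, the 3 rows most like each of Gm4673, Gm15657 and Gm11149, the list rows called and up to 4 rows of highest mean CPM per list and reading. A list row that this rule names is not described here.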

Additional observations from a re-analysis of the deposited data

Results flagged for a closer look

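The Ncam1 row stood at 75.3 CPM in DMSO replicate 2, apart from the other 3 libraries without EZM8266, which had 55.9 and 53.7 CPM with olaparib and 51.9 CPM with DMSO. The gap to the nearest library, as a share of the range of the 4 libraries, was just above Dixon's critical value. It was the only one of 12 groups of 4 libraries examined that passed, and chance passes about 1 group in 20. Without DMSO replicate 2, the Ncam1 log2 fold change of the combination against DMSO was -0.35, against -0.67 with all libraries, and that of olaparib against DMSO was 0.08, against -0.23.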

How the results depend on the processing

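The counts of called rows moved by more than 1.5 times under some settings. With all 8 libraries, they were 42 for the averaged EZM8266 effect, 13 between EZM8266 and DMSO, 6 between the combination and olaparib, 14 for the combination against DMSO, 0 for olaparib against DMSO and 0 for the interaction. With no filter on low counts they were 83, 42, 42, 45, 8 and 7 in that order, but out of 27896 rows tested in place of 6379. The filter was applied anew in each fit with fewer libraries, so the rows tested also differed there. Fitting only the groups compared gave 3 between EZM8266 and DMSO and 11 between the combination and olaparib. Without both Gm10800-rich libraries, the averaged EZM8266 effect had 16, EZM8266 against DMSO 3, the combination against DMSO 5 and olaparib against DMSO 1. The interaction had 1 with DESeq2 and 1 with a filter of 1 CPM in 4 libraries. Leaving out 1 library gave 18 to 66 for the averaged effect, 5 to 24, 4 to 13 and 6 to 19 for the next 3, and 0 to 1 for olaparib and for the interaction. For the averaged EZM8266 effect, the junction and adhesion list rows called stayed at 0 in every setting run. The causes were not tested.

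Same-numbered libraries of the combination, EZM8266 and olaparib deviated together, with correlations of 0.291 for combination and EZM8266, 0.218 for combination and olaparib, and 0.293 for EZM8266 and olaparib. Those of DMSO ran against them, at -0.147, -0.32 and -0.31 with combination, EZM8266 and olaparib. The labels do not say what a number marks, and the numbers as labelled were not taken to pair the libraries of all 4 groups. With a replicate block, the counts were 39, 10, 5, 15, 0 and 0, and the Gm11149 call was lost (edgeR adjusted p = 0.0598). A block with the DMSO numbers crossed, added after seeing the data, gave 133, 84, 47, 73, 1 and 3, and of the members it called 4 for the averaged effect and 3 in each of the next 3 comparisons.

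Of the member fold changes under all settings, 543 stayed within 1 SE of the values reported, 17 moved further and 0 called values reversed. For the averaged effect, the Ncam1 row was also called with no filter (edgeR adjusted p = 0.0385). The Heg1 value of that effect ran from 0.16 to 1.19, so its 3 to 17 counts set no size. The low assigned depth limits the 3 gene rows most.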

Other observations

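A further row touches Lsr on the opposite strand. Gm17077 shares 25 exon bases with Lsr, too few to be read as its strand under the minimum used here, and held 159 to 270 counts. Its averaged EZM8266 log2 fold change was 0.29 ± 0.12 (SE), with an edgeR adjusted p of 0.629. The own rows of the genes next to the Lsr pair were nearly empty, with 2 to 9 counts for Usf2 and 0 to 2 for Fam187b. Given the strand of the counts, these rows do not show whether the transcripts of the 2 genes were low.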
